A study of Mus musculus with 3 samples.

Results

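Nuclear genes for mitochondrial respiration and for the mitochondrial ribosome were examined for Tcf1 binding in regulatory and conventional CD4 T cells of the mouse. Members were taken by symbol, as protein-coding genes of a RefSeq table. Their symbols start with Nduf, Sdh followed by a to d, Uqcr, Cox4 to Cox8, Atp5, Mrpl or Mrps. The rule itself uses no measured value, but it was set with earlier results of these data known. The rule found 178 of 21887 nuclear protein-coding genes, on 20 chromosomes. They comprise 41 subunits and 8 assembly factors of complex I, 8 genes of complex II and its assembly, 8 of complex III, 18 of complex IV, 17 of ATP synthase, 49 of the large and 29 of the small mitoribosome subunit. Binding was mapped by chromatin immunoprecipitation and sequencing (ChIP-seq) against Tcf1, a DNA-binding protein of the HMG-box family and the product of Tcf7.

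Cells came from the spleen of wild type Foxp3-Cre-GFP mice aged 8 to 10 weeks, so the Foxp3-driven Cre and GFP allele was carried by both groups. Regulatory T cells (Treg cells) were sorted as TCRb+, CD4+, CD25+ and Foxp3-Cre-GFP+. Conventional CD4 T cells were sorted as TCRb+, CD4+, CD25- and Foxp3-Cre-GFP-, and 1 label of that sample names them effector cells. A library of CD4 T cells from CD4-Cre+ Tcf1 fl/fl mice was not analysed here. Each cell type had 1 library and 1 list of peaks on mm10, with 3402 Treg and 4519 conventional peaks. The lists hold positions without read counts, so the depth is unknown, no difference has a replicate check and no test was run. All intervals are exact Clopper-Pearson 95% intervals that cover counting error only. Of 9 T cell marker genes, 7 had a Treg peak and 7 a conventional peak, where all protein-coding genes stood at 11.2% and 16.0%. Of 8 CD4 and Treg markers 3 had a Treg peak (Il2ra, Ctla4 and Tigit) and 4 a conventional peak (the same 3 and Ikzf2), and Cd4 and Foxp3 had none. None of the 5 B cell, 5 myeloid, 3 erythroid, 3 liver or 3 neuron markers had a peak, and groups this small say little at the shares of all genes. A peak records binding and not expression, so these counts do not measure which cells were sorted. Neither list held a peak on the mitochondrial chromosome.

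The respiratory chain passes electrons from NADH (complex I) and succinate (complex II) through complexes III and IV to oxygen, and the proton gradient it builds drives ATP synthase. A few subunits of these complexes are made inside the organelle by mitochondrial ribosomes, and the rest, with all mitoribosome proteins, are encoded in the nucleus. T cells raise respiratory capacity and mitochondrial translation when they are activated, and Treg cells are known for a reliance on oxidative metabolism. Tcf1 binds DNA through motifs related to CTTTGAT and CTTTGTT.

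The promoter sequences below are shown because a Tcf1 peak lay across the annotated start of the gene. Among 10 members whose listed start was inside a peak of both lists, the 6 with the widest Treg peaks are given first. Ndufa5, with a Treg peak alone, was added after the search because it was the one member whose promoter window held a TCF/LEF match and was overlapped by a peak. Each window runs from 250 bases before to 50 bases after a start, 5′ to 3′ on the strand of the gene, from RefSeq on GRCm38.p6, whose primary chromosomes are those of mm10. Capitals mark matches to the motifs searched on both strands, which are TCF/LEF (CTTTGAT or CTTTGTT), ETS (CCGGAAG), NRF1 (GCGCATGC), YY1 (AAGATGG), the CCAAT box (CCAAT), SP/KLF (GGGCGG), ERR (AAGGTCA), CRE (TGACGTCA), AP-1 (TGANTCA) and RUNX (TGTGGTT). The windows are chr19:10525160-10525459 for Sdhaf2, chr3:32736706-32737005 for Mrpl47, chrX:20617570-20617869 for Ndufb11, chr2:10080461-10080760 for Atp5c1 and chr19:45006393-45006692 for Mrpl43, all on the minus strand. They are chr13:99344536-99344835 on the plus strand for Mrps27 and chr6:24527641-24527940 on the minus strand for Ndufa5.
Sdhaf2: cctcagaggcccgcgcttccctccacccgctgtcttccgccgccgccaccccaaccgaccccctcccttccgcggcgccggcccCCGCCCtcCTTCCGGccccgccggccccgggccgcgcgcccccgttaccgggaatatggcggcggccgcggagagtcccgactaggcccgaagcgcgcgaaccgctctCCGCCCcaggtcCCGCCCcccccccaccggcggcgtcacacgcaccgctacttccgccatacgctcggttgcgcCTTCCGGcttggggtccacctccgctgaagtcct
Mrpl47: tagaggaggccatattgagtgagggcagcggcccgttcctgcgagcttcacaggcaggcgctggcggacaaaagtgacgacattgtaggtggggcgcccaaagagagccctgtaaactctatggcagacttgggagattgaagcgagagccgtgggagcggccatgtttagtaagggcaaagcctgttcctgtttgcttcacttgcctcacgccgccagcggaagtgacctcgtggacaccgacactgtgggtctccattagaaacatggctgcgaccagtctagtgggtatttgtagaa
Ndufb11: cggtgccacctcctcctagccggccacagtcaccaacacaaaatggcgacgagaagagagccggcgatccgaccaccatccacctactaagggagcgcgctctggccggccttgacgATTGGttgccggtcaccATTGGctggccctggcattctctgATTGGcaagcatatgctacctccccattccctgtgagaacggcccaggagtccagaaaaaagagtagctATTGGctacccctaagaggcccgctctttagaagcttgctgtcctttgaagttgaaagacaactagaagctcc
Atp5c1: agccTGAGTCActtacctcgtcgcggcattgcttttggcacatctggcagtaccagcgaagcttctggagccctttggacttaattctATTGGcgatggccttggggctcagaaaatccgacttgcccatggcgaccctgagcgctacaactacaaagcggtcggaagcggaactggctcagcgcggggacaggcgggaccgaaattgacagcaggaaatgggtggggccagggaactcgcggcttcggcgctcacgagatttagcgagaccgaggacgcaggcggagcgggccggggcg
Mrpl43: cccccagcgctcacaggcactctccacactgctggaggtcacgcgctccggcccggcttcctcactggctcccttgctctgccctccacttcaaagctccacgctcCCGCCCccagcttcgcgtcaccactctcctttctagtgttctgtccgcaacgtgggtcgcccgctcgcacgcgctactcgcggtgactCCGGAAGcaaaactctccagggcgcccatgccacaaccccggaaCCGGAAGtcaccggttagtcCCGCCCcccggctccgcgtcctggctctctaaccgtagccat
Mrps27: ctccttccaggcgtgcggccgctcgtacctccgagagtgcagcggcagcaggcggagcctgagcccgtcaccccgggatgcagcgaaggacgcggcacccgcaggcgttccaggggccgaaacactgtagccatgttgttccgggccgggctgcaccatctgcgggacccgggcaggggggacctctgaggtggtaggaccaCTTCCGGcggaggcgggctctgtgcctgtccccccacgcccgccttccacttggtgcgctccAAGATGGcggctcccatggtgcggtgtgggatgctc
Ndufa5: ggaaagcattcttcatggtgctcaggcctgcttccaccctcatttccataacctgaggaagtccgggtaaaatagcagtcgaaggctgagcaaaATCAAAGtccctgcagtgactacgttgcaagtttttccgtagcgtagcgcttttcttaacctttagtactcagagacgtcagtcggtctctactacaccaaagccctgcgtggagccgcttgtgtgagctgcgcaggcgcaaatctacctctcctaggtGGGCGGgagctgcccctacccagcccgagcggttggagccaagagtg

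The window of Sdhaf2 held 2 ETS and 3 SP/KLF matches, and that of Mrpl43 held 2 of each. Mrps27 had 1 ETS match and 1 YY1 match. Ndufb11 had 4 CCAAT boxes, and Atp5c1 had 1 beside 1 AP-1 match. Mrpl47 had no match to any motif searched, although both lists had a peak across its start. Ndufa5 had the TCF/LEF match ATCAAAG, the reverse complement of CTTTGAT, 156 bp before the start, and 1 SP/KLF match. None of the other 6 windows held a TCF/LEF match, and no match in the 7 windows overlapped another.

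A Tcf1 peak lay at 48 of the 178 genes in at least 1 list, and 130 had none. A gene was counted when a peak midpoint fell inside its span or within 1 kb of its ends. In the Treg list 30 members had a peak, or 16.9% (95% interval 11.7% to 23.2%), against 11.2% of all protein-coding genes. In the conventional list 36 members had a peak, or 20.2% (14.6% to 26.9%), against 16.0% of all protein-coding genes. Members with a peak in both lists numbered 18, or 10.1% (6.10% to 15.5%), against 7.76% of all genes. A Treg peak alone was found at 12 members and a conventional peak alone at 18.

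The distance from the background depended on how peaks near several genes were assigned. Among members, 106 (59.6%) had another protein-coding gene within 1 kb, against 31.6% of all genes, and their median span was 7502.5 bp, against 17169 bp. When each peak went to the nearest protein-coding span alone, 10.1% of members and 10.1% of all genes had a Treg peak, and 13.5% of members and 14.2% of all genes had a conventional peak. When peaks in the window of more than 1 protein-coding gene were left out, an alternative chosen after seeing the data, 6.18% of members had a Treg peak, against 8.54% of all genes. The same alternative left a conventional peak at 6.18% of members, against 11.7% of all genes. With all genes reweighted to the members' mix of span quartile and close neighbours, 16.9% of members stood against 10.4% of all genes in the Treg list, and 20.2% against 15.9% in the conventional list. Gene activity is not in these files, and its part in the counts was not tested.

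**Figure D1:**
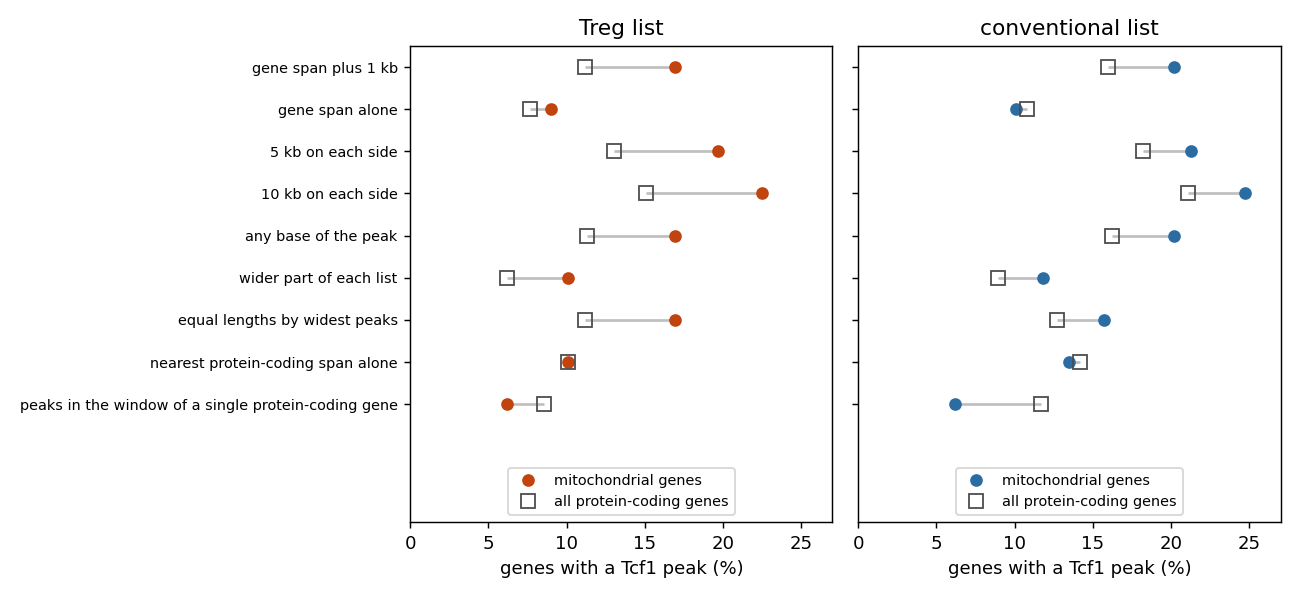
Share of genes with a Tcf1 peak (%) under 9 ways of assigning peaks to genes, in the Treg list (left) and the conventional list (right), with filled circles for the 178 mitochondrial genes and open squares for all protein-coding genes. The circles lie to the right of the squares under most settings, as for 16.9% against 11.2% in the Treg list, but meet or fall left of them when a peak is given to the nearest gene alone or when peaks near several genes are left out, and in the conventional list also when the gene span is used without the 1 kb on each side.

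Among the shortest of 4 equal classes of all genes, with spans up to 5670 bp, 8 of 65 members (12.3%) had a Treg peak, against 4.79% of all genes of that size. A conventional peak was present at 11 of those 65 members (16.9%), against 6.98% of all. In the next class, with spans up to 17169 bp, 13 of 83 members (15.7%) had a Treg peak, against 9.89% of all, and 17 (20.5%) had a conventional peak, against 15.2%. Most members were in these 2 classes of short genes, in which the share of all genes with a peak was lowest. In the third class, with spans up to 44337 bp, 7 of 19 members (36.8%) had a Treg peak, against 12.8% of all. A conventional peak was at 5 of those 19 (26.3%), against 19.5%. In the class of longest genes 2 of 11 members (18.2%) had a Treg peak, against 17.3%, and 3 (27.3%) a conventional peak, against 22.2%. Members with a close neighbour had a Treg peak in 22 of 106 cases (20.8%, against 15.0% of all such genes) and a conventional peak in 29 (27.4%, against 22.8%). Members without one had a Treg peak in 8 of 72 cases (11.1%, against 9.48%) and a conventional peak in 7 (9.72%, against 12.9%).

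Subunits of complex I, the NADH dehydrogenase that feeds electrons into the chain, carried a Treg peak at 10 of 41 genes (24.4%, 12.4% to 40.3%) and a conventional peak at 12 (29.3%, 16.1% to 45.5%). The shares of all genes were 11.2% in the Treg list and 16.0% in the conventional list. Both lists had a peak at 7 of the 41, where 7.76% of all genes had one, among them Ndufs1, Ndufs6, Ndufs7, Ndufv1, Ndufb5 and Ndufb11. Of the 7 nuclear-encoded core subunits, which bind the flavin and the iron-sulfur clusters or shape the quinone site, 4 had a Treg peak and 6 a conventional peak, and Ndufs8 alone had none. The other 34 complex I subunits had 6 with a Treg peak (17.6%) and 6 with a conventional peak (17.6%), near the 16.0% of all genes in the conventional list. The core subunits were singled out after the values were seen, so their count is a description of these genes.

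Ndufs1, the largest iron-sulfur subunit of complex I, lies on chromosome 1 from 63143592 to 63176822, and both peaks lay across its upper end. The Treg peak (63176602 to 63177023) was 422 bp wide, and the overlapping conventional peak (63176662 to 63177190) was 529 bp wide. The same peaks fell in the window of Eef1b2, a translation elongation factor gene, so they cannot be given to Ndufs1 alone.

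Ndufs7, the core subunit with the last iron-sulfur cluster before quinone (chromosome 10, 80249105 to 80256794), had a Treg peak of 366 bp (80249283 to 80249648) and a conventional peak of 648 bp (80249000 to 80249647). Ndufv1, the subunit that binds NADH and the flavin (chromosome 19, 4007499 to 4012755), had a Treg peak of 330 bp (4012559 to 4012888) and a conventional peak of 440 bp (4012538 to 4012977). At both genes the peaks covered the listed start and lay in the window of no other protein-coding gene. Ndufs3, another core subunit, had a conventional peak of 520 bp (chromosome 2, 90904289 to 90904808), also in the window of Kbtbd4. It had no Treg peak within 149245 bp of its span. Ndufv2, an iron-sulfur subunit next to the flavin site, had the widest member peak of the conventional list, at 1098 bp (chromosome 17, 66101106 to 66102203), rank 77 of 4519. The nearest Treg midpoint lay 1689 bp outside the Ndufv2 span, beyond the 1 kb limit.

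Accessory subunits of complex I mostly had peaks at shared gene ends. Ndufb11, a membrane arm subunit (chromosome X, 20615326 to 20617619), had a Treg peak of 553 bp (20617361 to 20617913) and a conventional peak of 509 bp (20617312 to 20617820), both also in the window of Rbm10. Ndufs6 and Mrpl36, which lie end to end on chromosome 13, shared 1 Treg peak of 370 bp (73328425 to 73328794) and 1 conventional peak of 491 bp (73328386 to 73328876). These peaks covered the start of Ndufs6 and lay upstream of the listed start of Mrpl36, at -2400 bp for the Treg and -2378 bp for the conventional midpoint. Ndufb5 and Mrpl47 likewise shared the peaks between them on chromosome 3, a Treg peak of 578 bp (32736452 to 32737029) and a conventional peak of 649 bp (32736594 to 32737242). A peak in 1 list alone was found at Ndufa5, Ndufb1 and Ndufb3 in the Treg list and at Ndufs4, Ndufa4 and Ndufa13 in the conventional list, of which Ndufa4 is known to belong to complex IV despite its name. The Treg peak of Ndufa5 (chromosome 6, 24527475 to 24527911) was 437 bp wide, with its midpoint 3 bp outside the span, and lay also in the window of Asb15. Of the complex I assembly factors, Ndufaf6 had a Treg peak of 283 bp. Ndufaf7, a methyltransferase, had a conventional peak of 372 bp, also in the window of Cebpz. The other 6 assembly factors had none.

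At complex II the peaks were all at assembly factors. No peak lay at Sdha, Sdhb, Sdhc or Sdhd, which encode the enzyme itself, while Sdhaf1, Sdhaf2 and Sdhaf3 had Treg peaks and Sdhaf2 also a conventional peak. The whole group had a Treg peak at 3 of 8 genes (37.5%, 8.52% to 75.5%), against 11.2% of all genes. A conventional peak was at 1 of the 8 (12.5%), against 16.0%. The division into enzyme and assembly genes was not among the planned groups, and groups this small say little at these shares. Sdhaf2, needed to attach the flavin to Sdha, lies on chromosome 19 from 10500512 to 10525209. Its Treg peak of 959 bp (10524907 to 10525865) was the widest member peak of that list, rank 83 of 3402, and its conventional peak was 868 bp wide (10524849 to 10525716). Both lay also in the window of Cpsf7. Sdhaf1, an iron-sulfur assembly factor with a span of only 967 bp on chromosome 7, had 2 Treg peaks (30321446 to 30321803 and 30322200 to 30322475) and no conventional midpoint within 72227 bp. Sdhaf3, of the same function, had 2 Treg peaks of 294 and 326 bp deep inside its span of 83691 bp on chromosome 6, and no conventional midpoint within 805268 bp.

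At complexes III and IV and at ATP synthase the counts were small and their intervals held the shares of all genes, 11.2% (Treg) and 16.0% (conventional). Complex III, which passes electrons from quinol to cytochrome c, had no Treg peak at its 8 genes and 1 conventional peak, of 461 bp at Uqcrq (chromosome 11, 53430528 to 53430988), also in the window of Gdf9. Complex IV, the cytochrome c oxidase, had Treg peaks at 2 of 18 genes (11.1%, 1.38% to 34.7%) and no conventional peak. They were of 248 bp at Cox4i1 (chromosome 8, 120668110 to 120668357) and of 277 bp at Cox5a (chromosome 9, 57521123 to 57521399), 2 subunits that surround the catalytic core. The Cox4i1 peak also lay in the windows of Emc8 and Gm27021. ATP synthase had a Treg peak at 1 of 17 genes (5.88%) and a conventional peak at 2 (11.8%). Atp5c1, which encodes the gamma subunit of the central stalk, had a Treg peak of 486 bp (chromosome 2, 10080323 to 10080808) and a conventional peak of 692 bp (10080071 to 10080762), both shared with the window of Kin. Atp5d, the delta subunit of that stalk, had a conventional peak of 318 bp (chromosome 10, 80141307 to 80141624) that lay 810 bp before a listed start.

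**Figure D2:**
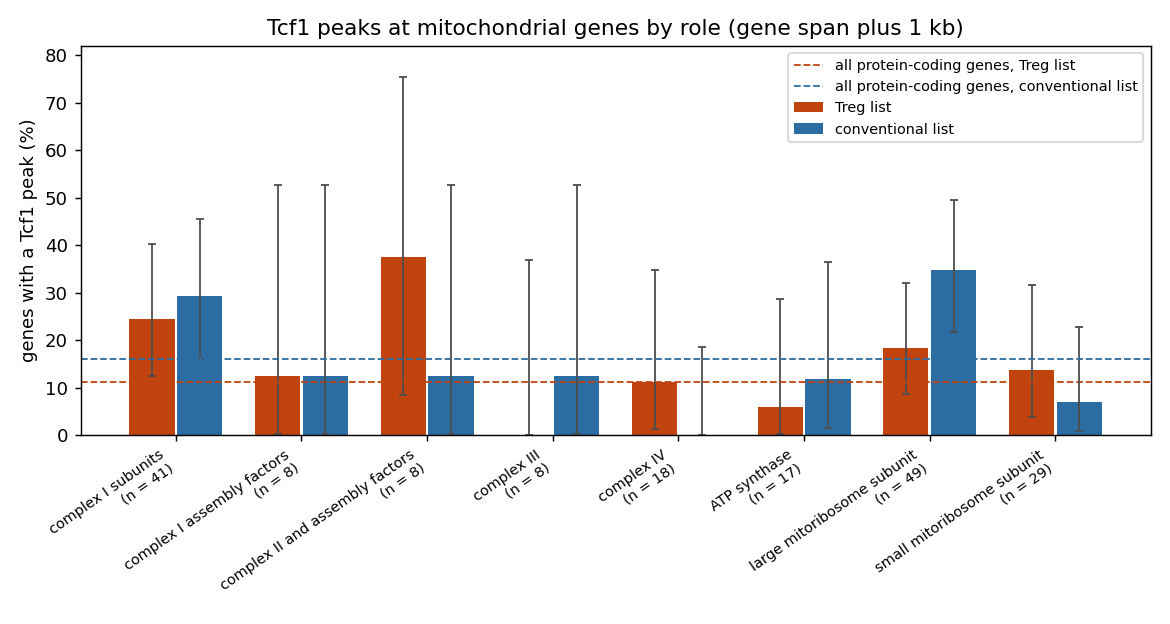
Share of genes with a Tcf1 peak (%) in each role group, for the Treg list (left bar) and the conventional list (right bar), with exact 95% intervals as error bars and dashed lines at the shares of all protein-coding genes, 11.2% and 16.0%. The intervals are wide and cover counting error only, some genes share a peak across groups (Ndufs6 with Mrpl36, Ndufb5 with Mrpl47), and the bars are highest for complex II in Treg (37.5%) and the large mitoribosome subunit in conventional (34.7%).

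The large subunit of the mitoribosome, which joins amino acids into the chain, had a Treg peak at 9 of 49 genes (18.4%, 8.76% to 32.0%) and a conventional peak at 17 (34.7%, 21.7% to 49.6%). Of the 9 genes with a Treg peak 8 also had a conventional peak, and the exception was Mrpl14, where 69.2% of all genes with a Treg peak also had a conventional one. The 9 with a conventional peak alone were Mrpl11, Mrpl18, Mrpl23, Mrpl30, Mrpl34, Mrpl35, Mrpl44, Mrpl48 and Mrpl54. The small subunit, which reads the messenger RNA, had a Treg peak at 4 of 29 genes (13.8%, 3.89% to 31.7%) and a conventional peak at 2 (6.90%, 0.846% to 22.8%). All genes stood at 11.2% (Treg) and 16.0% (conventional), and no difference from these shares was tested. Mrps27 had both, Mrps7, Mrps23 and Mrps31 a Treg peak alone, and Mrps18b a conventional peak alone. Whether the cell types differ in this cannot be read from 1 library each. With the conventional list reduced to its 3402 widest peaks, the length of the Treg list, 15.7% of members had a conventional peak, against 12.7% of all genes.

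The widest Treg peaks at large subunit genes were at Mrpl40 and Mrpl39. Mrpl40 (chromosome 16, 18872018 to 18876637) had a Treg peak of 926 bp (18876504 to 18877429), rank 97 of 3402, and a conventional peak of 689 bp (18876751 to 18877439), both also in the window of the histone chaperone gene Hira. Mrpl39 (chromosome 16, 84718281 to 84735244) had a Treg peak of 676 bp (84735018 to 84735693) and a conventional peak of 286 bp (84735256 to 84735541), in the window of no other protein-coding gene. The Mrpl39 pair thus differed more in width than most, with the conventional peak lying wholly inside the Treg peak. Mrpl2, the counterpart of bacterial ribosomal protein L2, had a Treg peak of 419 bp and a conventional peak of 470 bp with midpoints 21 bp apart. Both lay also in the window of Klc4. Mrpl13 had a Treg peak of 373 bp and a conventional peak of 363 bp, 39 bp apart, both also in the window of Mtbp. Mrpl43 had a Treg peak of 460 bp (chromosome 19, 45006420 to 45006879) and a conventional peak of 524 bp (45006274 to 45006797), which lay also in the window of Twnk, the helicase of mitochondrial DNA.

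Mrpl58, a peptidyl-tRNA hydrolase built into the ribosome, was the one member with 2 conventional peaks. The first (chromosome 11, 115403494 to 115403991, 498 bp) lay across its start and had no Treg partner. The second (115407243 to 115407609, 367 bp) lay inside the gene and overlapped the Treg peak of 358 bp (115407096 to 115407453), with midpoints 152 bp apart. Mrps27 (chromosome 13, 99344767 to 99415562) had a Treg peak of 424 bp (99344473 to 99344896) and a conventional peak of 310 bp (99344529 to 99344838), whose midpoints were 1 bp apart. Both Mrps27 peaks lay also in the window of Ptcd2. Of the Treg peaks found alone at small subunit genes, that of Mrps7 was 483 bp wide and lay also in the window of Gga3. The Treg peak of Mrps23, at 241 bp, was close to the narrowest width in the list, 240 bp.

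Most peaks at these genes lay at gene starts. The promoter table lists a start for 151 of the 178 members. Within 1 kb of a listed start, 21 of 151 members had a Treg peak (13.9%, 8.82% to 20.5%), against 8.15% of all genes with a listed start, and 29 had a conventional peak (19.2%, 13.3% to 26.4%), against 12.7%. Of 27 pairs of a member with a listed start and its Treg peak, 18 (66.7%, 46.0% to 83.5%) had a peak that covered a listed start. Over all genes 43.9% of such pairs did. Of 32 such pairs in the conventional list, 23 (71.9%, 53.3% to 86.3%) did so, against 50.3%. A peak shared by neighbouring members counts in a pair for each. Members have shorter spans and more often a close neighbour than all genes, and the part of either in these shares was not tested. The median midpoint position was -18 bp from the start in the Treg list and -85.5 bp in the conventional list, negative values lying upstream. Pairs farther than 3 kb downstream of a listed start numbered 4 in the Treg list, at Sdhaf3 (2 peaks), Mrps31 and Mrpl58, and 1 in the conventional list, at Mrpl58.

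**Figure D3:**
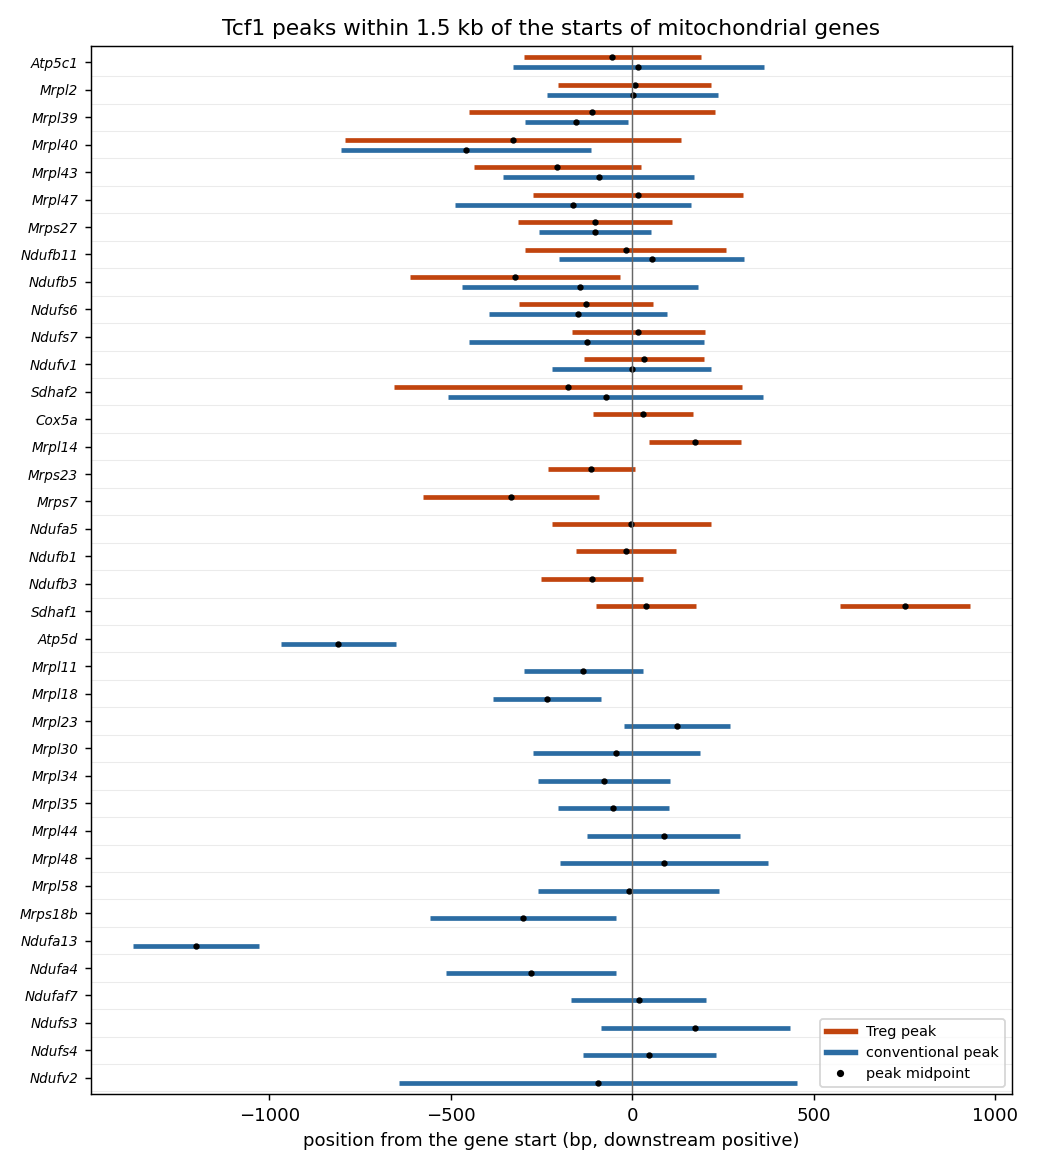
Tcf1 peaks near listed starts of mitochondrial genes, with the position from the start in bp (downstream positive) on the horizontal axis and 1 gene per row, Treg peaks drawn above conventional peaks as bars of their true width and midpoints as dots. Genes with peaks of both lists in the drawn range come first, then Treg alone, then conventional alone, and most bars cross the vertical line at the start, as in 18 of 27 Treg and 23 of 32 conventional pairs of a gene and a peak.

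Relative to the gene span, 22 of 30 member Treg peaks (73.3%, 54.1% to 87.7%) lay within 1 kb of an end of a member, against 58.8% of all Treg peaks in a gene window. In the conventional list 31 of 35 (88.6%, 73.3% to 96.8%) did so, against 61.6%. Members have shorter spans than all genes, and the part of span in this share was not tested. Peaks were often common property: 17 of 30 member Treg peaks (56.7%, 37.4% to 74.5%) lay also in the window of another protein-coding gene, against 13.0% of all Treg peaks in a gene window. The share was 23 of 35 conventional member peaks (65.7%, 47.8% to 80.9%), against 14.5%. The count over all peaks takes any pair of protein-coding genes, and members have close neighbours more often, as given above.

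Among members with a peak outside their span, the farthest inside the limit were Mrps7 at 334 bp in the Treg list and Ndufa13 at 665 bp in the conventional list. The nearest beyond it were Ndufv2 at 1689 bp, Mrpl34 at 1879 bp and Mrpl55 at 2158 bp in the Treg list, and Mrpl55 at 2194 bp in the conventional list. No member midpoint lay close to the limit itself. Over all members the median distance to the nearest peak midpoint was 99603.5 bp in the Treg list, against 160216 bp for all genes, and 46422.5 bp in the conventional list, against 104815 bp.

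At member genes the 2 lists overlapped in shares whose wide intervals held those of all peaks. An overlap with a conventional peak was present for 16 of 30 member Treg peaks, which is 53.3% (34.3% to 71.7%). It was present for 56.9% of all Treg peaks and 61.5% of those in a gene window. Of 35 member conventional peaks 16 overlapped a Treg peak, or 45.7% (28.8% to 63.4%). The share was 42.8% of all conventional peaks and 42.1% of those in a gene window. In the 16 overlapping pairs midpoints lay 1 to 178 bp apart, with a median of 98.5 bp, and the conventional peak was the wider in 10 and the Treg peak in 6. Over all 1935 overlapping Treg peaks the conventional partner was the wider in 69.8%. By gene, 60.0% of members with a Treg peak also had a conventional peak, against 69.2% of all genes with a Treg peak. Of 36 members with a conventional peak 18 also had a Treg peak, against 48.6% of all genes with a conventional peak.

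Member peaks had ordinary widths. The median was 368 bp for member Treg peaks (quartiles 281.5 and 454.25 bp), against 366 bp over the Treg list (295 and 472 bp). It was 461 bp for member conventional peaks (355 and 522 bp), against 428 bp over the conventional list (347 and 557 bp). The widest member peaks, 959 and 1098 bp, were far from the widest of the lists, 5802 bp in Treg and 5787 bp in conventional. Overlapping member peaks were the wider ones, with medians of 423 bp (overlapping) and 282 bp (not overlapping) in the Treg list and 500 and 396 bp in the conventional list, as over all peaks (408 and 322 bp, 497 and 387 bp).

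**Figure D4:**
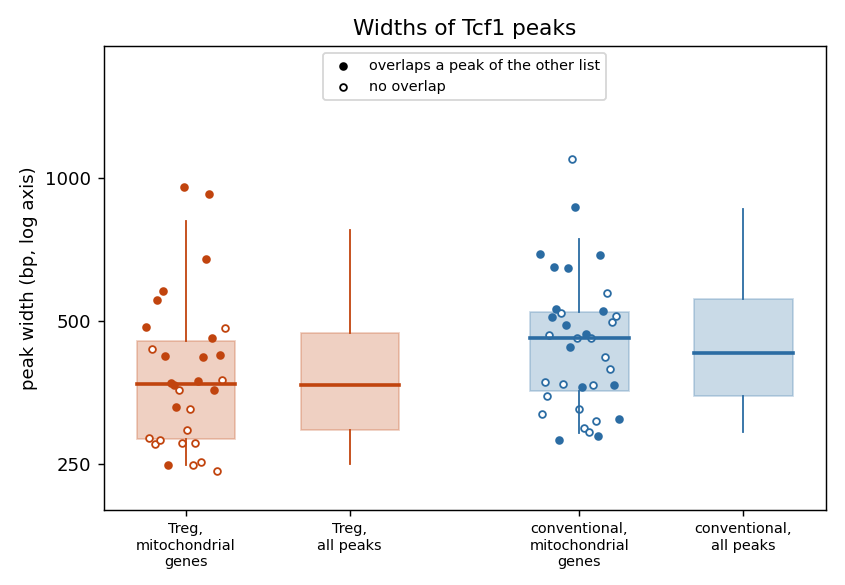
Widths of Tcf1 peaks in bp on a log axis for the Treg list (left pair) and the conventional list (right pair), with points for peaks at mitochondrial genes (filled where they overlap a peak of the other list), boxes from the lower to the upper quartile, a bar at the median and lines from the 5th to the 95th percentile. Points of mitochondrial genes lie over the same range as the boxes of all peaks, with medians of 368 against 366 bp in Treg and 461 against 428 bp in conventional, and filled points lie higher.

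Some motifs were more common in the promoter windows of these genes than in those of all genes, and others were not. An ETS match was found at 48 of 151 members (31.8%), against 12.9% of 17492 protein-coding genes with a listed start. NRF1 matches were at 20 members (13.2%, against 3.94%) and YY1 matches at 25 (16.6%, against 7.18%), and both factors are known regulators of nuclear genes for mitochondria. NRF1 matches were at 2 of 41 members with a peak (4.88%, against 6.04% of all genes with a peak) and at 18 of 110 members without one (16.4%). A TCF/LEF match was found at 7 members (4.64%), against 9.30% of all genes. CCAAT boxes (41.1%, against 42.3%) and SP/KLF matches (48.3%, against 49.2%) were about as common as in all genes. ERR matches stood at 7.95% of members against 4.73% of all genes, CRE at 3.97% against 2.54%, AP-1 at 6.62% against 8.12% and RUNX at 3.97% against 5.55%.

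**Figure D5:**
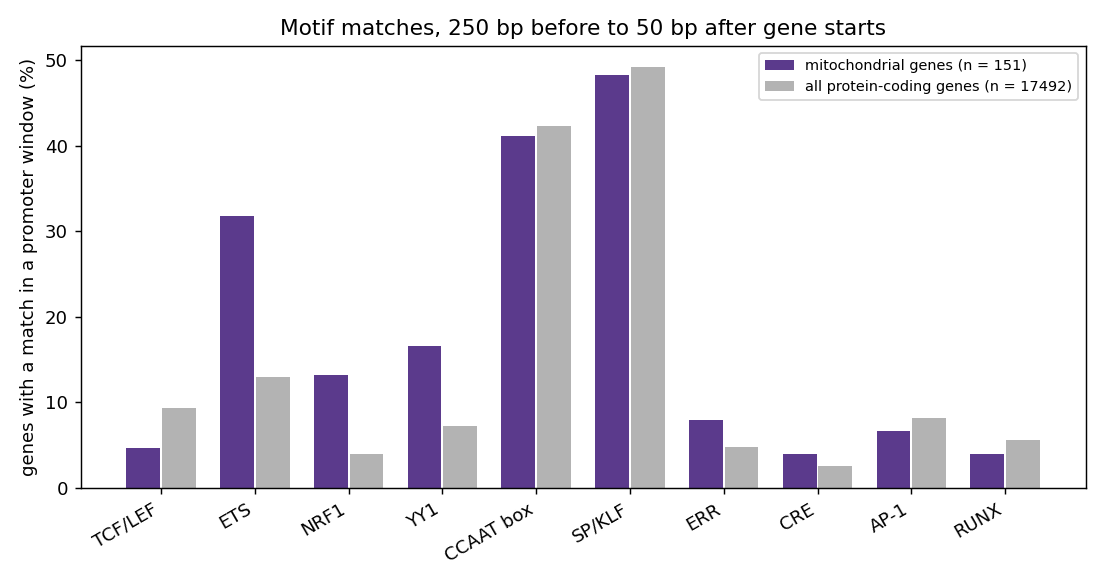
Share of genes (%) with at least 1 match to each motif in a window from 250 bases before to 50 bases after a listed start, for 151 mitochondrial genes (left bar) and 17492 protein-coding genes (right bar), without error bars. ETS (31.8% against 12.9%), NRF1 (13.2% against 3.94%) and YY1 (16.6% against 7.18%) stand higher at mitochondrial genes, and TCF/LEF (4.64% against 9.30%) stands lower.

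The windows under a peak were counted in the same way, with no test on so few genes. A peak of either list overlapped a promoter window of 36 members and of 2392 protein-coding genes in all. Among these windows a TCF/LEF match was in 1 of 36 members (2.78%), Ndufa5, against 8.44% of all. ETS matches were in 10 of the 36 (27.8%, against 26.6%), NRF1 in 2 (5.56%, against 6.52%) and YY1 in 6 (16.7%, against 9.53%). SP/KLF matches were in 16 (44.4%), against 75.7% of all genes with a peak over the window, and CCAAT boxes in 9 of the 36, against 40.3%. AP-1 matches were in 2 (5.56%, against 3.68%), Atp5c1 and Ndufa5, for Ndufa5 in a listed window other than the one printed above. ERR, CRE and RUNX matches were in none of the 36 (against 55 of 2392 genes for ERR, 5.39% for CRE and 3.89% for RUNX). Between all listed starts and the windows under a peak, the share of members with a match was 31.8% and 27.8% for ETS, 16.6% and 16.7% for YY1, and 48.3% and 44.4% for SP/KLF. The share of all genes was 12.9% and 26.6% for ETS and 49.2% and 75.7% for SP/KLF. For ETS, SP/KLF, YY1 and AP-1 the share of all genes moved more. The share of members moved more for NRF1, CCAAT boxes, TCF/LEF, ERR, CRE and RUNX. With 36 members 1 gene is 2.78%, so the shifts of members rest on few genes and this order says little. For NRF1 the share was 13.2% and 5.56% of members, against 3.94% and 6.52% of all genes. CCAAT boxes were in 41.1% of members and in 9 of the 36, against 42.3% and 40.3% of all genes. A missing match says only that those letters are not in these windows, and peaks extended beyond them.

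Other genes of mitochondrial function, from a list that holds no member, had a Treg peak at 27 of 101 (26.7%, against 11.2% of all protein-coding genes) and a conventional peak at 33 of 101 (32.7%, against 16.0%), 23 of them in both lists. The list also holds the transcription factor genes Myc and Yy1, both among the 23. It is not fully separate from the members, since Twnk, also among the 23, has both Mrpl43 peaks in its window. The shares are for the gene span with 1 kb on each side, and other ways of assigning peaks are not given for this list. Genes for the upkeep of mitochondrial DNA were among the 23, with Polg (polymerase) at 301 bp in Treg and 828 bp in conventional, Ssbp1 (single-strand binding protein) at 259 and 716 bp, and Polg2 at 240 and 840 bp. Some factors that act on mitochondrial genes from the nucleus also had peaks in both lists. Among them were Nrf1 at 790 bp in Treg and 388 bp in conventional, Gabpb1 at 446 and 1260 bp, and Pprc1 at 449 and 762 bp. Dap3, a small mitoribosome protein outside the symbol rule, had a Treg peak of 970 bp (chromosome 3, 88950153 to 88951122) and a conventional peak of 282 bp (88950086 to 88950367). Cox20, an assembly factor of complex IV, had peaks of 1296 bp in Treg and 1234 bp in conventional, and Bcs1l, which inserts the iron-sulfur protein of complex III, had 710 and 624 bp. Tfam, the packaging factor of mitochondrial DNA, and Gabpa had none in either list. The same was true of Esrra, Ppargc1a, Ppargc1b, Polrmt, Tfb1m, Tfb2m, Mterf3 and Mterf4. The genes of the cytosolic ribosome, whose symbols start with Rpl or Rps, had a Treg peak at 19 of 84 (22.6%) and a conventional peak at 39 (46.4%).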

How the data were processed

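Tcf1 ChIP-seq peak lists of 1 Treg and 1 conventional CD4 T cell library were analysed. The authors deposited 1 list per sample, and the 3 columns hold chromosome, start and end, with no count, height or p-value. Per the submitters' processing notes, FastQC, Bowtie2 2.3.4.1, MACS2 2.1.1 and mm10 were used, with no role given. The filter behind the lists and the use of a control are not given in the sources used here, and a depth-dependent caller changes how many peaks a list holds and how wide they are.

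Gene spans came from a RefSeq table on GRCm38.p6, which gives no exons, so exonic and intronic positions were not told apart. The 13 protein-coding genes of the mitochondrial chromosome were left out. A peak went to every protein-coding gene whose span, extended by 1000 bp, held its midpoint. Lists overlapped where peaks shared at least 1 bp. RefSeq promoter windows gave strand and start for 151 members and 17492 genes, and motif matches were counted per gene over all its windows. Named were members with a peak in both lists, with 2 peaks or with the widest peaks, and all members with a peak in role groups with few. 1 gene that meets this rule is counted but not reported here by name. The members and gene lists were chosen with earlier results of these data known, so no chance test was run. Python 3.11.15, numpy 2.4.6, pandas 2.3.3, scipy 1.17.1 and matplotlib 3.10.9 were used, and assignment and overlap were tested on simulated data. Alternatives changed the window, the placing rule, the list length, the overlap rule and the member rule.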

Additional observations from a re-analysis of the deposited data

How the results depend on the processing

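The assignment rule moved the counts most. With the gene span alone, a Treg peak was at 16 members, a conventional peak at 18 and a peak in both lists at 5, against 30, 36 and 18 with 1 kb on each side. The share over all genes was lower with the span alone as well. It was 8.99% of members against 7.68% of all genes in the Treg list, and 10.1% against 10.8% in the conventional list. In the wider part of each list (1706 Treg and 2274 conventional peaks) the Treg count was 18 (10.1%, against 6.16% of all genes). The conventional count there was 21 (11.8%, against 8.92%). With the nearest protein-coding span alone the Treg count was 18 (10.1%, against 10.1% of all genes) and the count for both lists 7. With peaks in the window of a single protein-coding gene, chosen after seeing the data, the counts were 11 (Treg), 11 (conventional) and 5 (both). The share of members was then 6.18% in each list, against 8.54% of all genes in Treg and 11.7% in conventional. In the wider part of each list 93.8% of member Treg peaks and 100% of member conventional peaks lay within 1 kb of a gene end. The share over all peaks in a gene window of the wider part is not given here. The rise therefore cannot be read as a trait of the members, and its cause was not tested. Of 46 alternatives run, 34 stayed within 1.5 times the count or inside the 95% interval of the share, and the 12 given above did not. The overlap shares of member peaks stayed inside that interval under every alternative, from 43.3% to 62.5% in Treg and from 45.7% to 52.6% in conventional. Starts were listed for 151 members, which lowers the counts within 1 kb of a start (21 Treg, 29 conventional). Depth is unknown, so a gene without a peak may lie below the calling threshold.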

Other observations

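Several genes for forms of complex IV subunits known from muscle, testis or lung, Cox4i2, Cox6a2, Cox6b2, Cox7a1, Cox7b2, Cox8b and Cox8c, had no peak in either list. The forms used in most tissues, Cox6a1, Cox6b1, Cox7a2, Cox8a and Cox4i1, had none either, except for the Treg peak at Cox4i1. The genes were singled out after their values were seen. With 11.2% of all genes having a Treg peak and 16.0% a conventional peak, the lack of a peak at so few genes says little.

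Enzymes of the citric acid cycle also had peaks. Mdh2 had a Treg peak of 540 bp and a conventional peak of 486 bp, which overlapped. At Ogdh the Treg peak (chromosome 11, 6291567 to 6291846) and the conventional peak (6291972 to 6292799) lay side by side without overlap, and Cs had a conventional peak of 443 bp alone. Idh3a, Idh3b, Idh3g, Fh1 and Sdha to Sdhd had no peak in either list.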
